A study of Mus musculus with 8 samples.

Results

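Shared intronic H3K27ac regions are stretches of gene introns that carried an acetylation peak both in proliferating and in differentiating Oli-neu cells. They were chosen by overlap of the deposited peak lists and by position alone: peaks of both lists were merged, and a merged region was kept when it held a peak of each list, lay inside a protein-coding gene body, touched no annotated exon of any gene, and avoided protein-coding promoters (from 3000 bp before a transcription start site, TSS, to 100 bp after it) and the 2000 bp that follow the TSS. Of 48416 merged regions, 8413 (17.4%) held a peak of each list and 1263 of these met the position rule. That both states marked them, and that they lay in introns, was thus fixed by the choice and is no finding.

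The study compared chromatin in Oli-neu cells, a mouse oligodendrocyte precursor line of embryonic origin immortalised by an activated ErbB2 receptor, given in the labels as strain C57BL/6. The proliferating library came from cells grown with thyroid hormones, bFGF and PDGF-BB. The differentiating library came from cells kept, per the labels, without growth factors for 1 day with 1 µM of the Erb inhibitor PD174265, whereas the study's methods give a longer time. Each state had 1 chromatin immunoprecipitation library, so no difference between states has a replicate check and no test between them was made. A single line stands for each state, and growth factor withdrawal and the inhibitor were always given together, so their effects cannot be told apart.

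Acetylation of lysine 27 of histone H3 is deposited by the acetyltransferases CBP and p300 and marks active promoters and enhancers. Enhancers commonly lie in introns, where they may serve the gene that contains them or another gene nearby. In the oligodendrocyte lineage, transcription factors of the SOX, OLIG and NFI families and TCF7L2 bind many such elements as precursors exit the cell cycle and begin to make myelin. Background on a host gene below says what its product is known for, not that the region controls it.

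The central 300 bp of 9 regions are shown, on the plus strand of GRCm38, because the members fall into unlike kinds of sequence that the rest of the text returns to. The first 3 belong to members with the highest fold enrichment in both lists, and capitals mark the best match to the tandem array under the widest peak of either list. The array lies at the start of chromosome 9 and repeats with a period of 234 bp, the unit length of the mouse major satellite. The sequence from Sos2 holds no such match and has no capitals, but it repeats itself with a unit of 51 bp.
Cdk5rap2, chr4:70378034-70378333: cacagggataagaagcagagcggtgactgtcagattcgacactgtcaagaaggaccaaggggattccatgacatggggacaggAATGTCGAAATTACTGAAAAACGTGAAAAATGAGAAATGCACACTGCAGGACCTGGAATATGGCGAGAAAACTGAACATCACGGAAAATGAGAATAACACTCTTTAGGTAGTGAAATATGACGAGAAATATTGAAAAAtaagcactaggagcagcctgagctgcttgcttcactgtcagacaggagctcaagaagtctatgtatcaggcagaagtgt
Sos2, chr12:69654057-69654356: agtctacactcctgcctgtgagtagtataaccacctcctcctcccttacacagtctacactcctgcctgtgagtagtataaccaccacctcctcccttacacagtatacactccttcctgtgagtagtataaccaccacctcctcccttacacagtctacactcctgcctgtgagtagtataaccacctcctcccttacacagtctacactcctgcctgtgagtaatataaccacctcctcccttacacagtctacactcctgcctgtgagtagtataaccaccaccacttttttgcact
Mamdc2, chr19:23357318-23357617: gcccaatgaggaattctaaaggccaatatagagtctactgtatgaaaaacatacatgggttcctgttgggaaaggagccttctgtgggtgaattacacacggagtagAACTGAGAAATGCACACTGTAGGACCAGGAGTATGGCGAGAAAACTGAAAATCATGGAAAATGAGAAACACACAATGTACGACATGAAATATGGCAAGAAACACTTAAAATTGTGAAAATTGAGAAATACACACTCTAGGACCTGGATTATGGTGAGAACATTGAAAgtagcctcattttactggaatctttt
In the other 6, from hosts on the oligodendrocyte lists, capitals mark the SOX letters ACAAAG, the E-box CAGCTG and the SP/KLF letters GGGCGG on either strand. These 6 were picked, after their letters were seen, among regions named by the rule for list genes.
Sox6, chr7:115615695-115615994: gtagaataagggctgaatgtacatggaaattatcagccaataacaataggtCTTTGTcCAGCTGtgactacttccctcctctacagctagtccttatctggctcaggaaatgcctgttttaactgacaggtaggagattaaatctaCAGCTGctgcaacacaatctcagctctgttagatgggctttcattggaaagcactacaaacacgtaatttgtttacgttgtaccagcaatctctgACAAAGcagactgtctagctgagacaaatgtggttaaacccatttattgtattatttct
Zfp488, chr14:33974884-33975183: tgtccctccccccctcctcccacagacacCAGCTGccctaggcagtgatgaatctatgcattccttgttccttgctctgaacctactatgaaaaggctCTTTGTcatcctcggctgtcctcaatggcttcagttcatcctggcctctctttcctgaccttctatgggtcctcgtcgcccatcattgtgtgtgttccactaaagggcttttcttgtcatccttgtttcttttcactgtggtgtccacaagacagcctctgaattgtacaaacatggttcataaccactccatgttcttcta
Fa2h, chr8:111375384-111375683: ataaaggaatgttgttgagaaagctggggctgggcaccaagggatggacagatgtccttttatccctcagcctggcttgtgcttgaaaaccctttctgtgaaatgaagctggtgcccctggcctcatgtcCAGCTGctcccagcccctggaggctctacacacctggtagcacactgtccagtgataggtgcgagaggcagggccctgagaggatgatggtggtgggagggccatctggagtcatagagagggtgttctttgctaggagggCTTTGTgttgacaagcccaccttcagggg
Ninj2, chr6:120112303-120112602: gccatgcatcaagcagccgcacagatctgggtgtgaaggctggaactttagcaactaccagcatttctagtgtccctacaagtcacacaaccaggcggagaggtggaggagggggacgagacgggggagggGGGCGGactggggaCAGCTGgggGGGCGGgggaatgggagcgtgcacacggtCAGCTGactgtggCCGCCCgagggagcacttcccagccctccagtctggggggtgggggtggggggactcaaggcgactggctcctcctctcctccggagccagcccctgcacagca
Lhfpl3, chr5:23061796-23062095: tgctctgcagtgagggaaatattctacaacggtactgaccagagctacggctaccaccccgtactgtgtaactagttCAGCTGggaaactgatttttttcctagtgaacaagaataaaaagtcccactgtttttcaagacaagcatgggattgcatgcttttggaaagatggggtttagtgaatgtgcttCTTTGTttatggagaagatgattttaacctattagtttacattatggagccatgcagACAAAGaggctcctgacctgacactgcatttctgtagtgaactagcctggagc
Tnr, chr1:159663227-159663526: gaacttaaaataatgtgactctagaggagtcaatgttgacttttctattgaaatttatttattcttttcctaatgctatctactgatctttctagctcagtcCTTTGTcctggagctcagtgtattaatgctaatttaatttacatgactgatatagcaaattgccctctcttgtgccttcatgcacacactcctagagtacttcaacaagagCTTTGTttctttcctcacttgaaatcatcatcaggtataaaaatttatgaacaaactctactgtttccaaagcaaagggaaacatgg

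The Sox6 window held 2 SOX and 2 CAGCTG matches, and the Ninj2 window held 2 CAGCTG and 3 GGGCGG matches. Sox6, a SOXD factor of oligodendrocyte precursors, and Zfp488, a zinc finger regulator of the lineage, are transcription factors. Fa2h makes the hydroxylated lipids of myelin and Ninj2 is an adhesion protein. Lhfpl3 is a membrane protein and Tnr is the matrix protein tenascin-R, both typical of oligodendrocyte precursors.

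The members took a small part of the acetylated introns. Of 14855 merged intronic regions, 8.50% held a peak of each list (exact binomial 95% interval 8.06 to 8.96), close to the 8.74% of 17069 intergenic regions, whereas 57.2% of 6675 promoter regions did. Each interval in the text covers counting error only. Sequencing depth cannot be read from the peak lists. All but 7 members consisted of 1 peak from each list. The bases under both peaks were a median 47.5% of a member's width (quartiles 27.7 and 70.1%). At the edges of the rule, the member nearest to its TSS lay 2003 bp into Tnfrsf19, which encodes a TNF receptor family member, with fold enrichment 3.38 in proliferating and 3.68 in differentiating cells. A shared region 1995 bp into Mfsd2a, a lipid transporter, fell outside, with values of 3.39 and 2.39. The peaks of the member in Cntnap5a shared only 2 bp, while a proliferating-only region in Nes, the nestin gene, missed the nearest peak of the other list by 1 bp.

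Members were wider than intronic regions of a single list, which a union of overlapping peaks favours. Their median width was 1365 bp (95% interval 1328 to 1391, range 293 to 3831 bp), against 501 bp for proliferating-only and 624 bp for differentiating-only intronic regions. Shared intergenic and shared promoter regions, built by the same union, had medians of 1339 and 1263 bp. Members of at least 2000 bp numbered 221 (17.5%). The widest was in Tmem267, a membrane protein gene, at 3831 bp, but 68.3% of its bases were marked as repeat. Next came Sox6 with 3795 bp, Pknox2 (a homeodomain factor) with 3769 bp, Mtss1 (a membrane-bending actin regulator) with 3711 bp, Tnr with 3634 bp and Ppfibp1 (a liprin scaffold) with 3603 bp. In these 5, repeats took between 7.35 and 21.1% of the bases.

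Within their host genes the members lay nearer to the start than single-list regions did. The median distance from the host TSS was 49605 bp (95% interval 44162 to 54102), with quartiles of 19113 and 129791 bp. It was 61703 bp (59117 to 64117) for proliferating-only and 63375.5 bp (60587 to 66922) for differentiating-only intronic regions. Of the members, 153 of the 1263 regions (12.1%) lay within 10 kb of the TSS, close to 11.7% of proliferating-only and 10.05% of differentiating-only regions. The members' hosts were also shorter, with a median over regions of 135384 bp, against 158391 and 164808 bp. As a share of host length, the median position was 44.1% for members, against 48.0 and 48.4%. The part of host length in the distances was not tested. Of 1217 regions for which a basic protein-coding transcript placed the intron, 449 (36.9%, interval 34.2 to 39.7) lay in the first one. The share was 27.4% (26.4 to 28.5) for proliferating-only and 29.3% (28.1 to 30.4) for differentiating-only intronic regions, so the intervals did not overlap. The last intron held 7.81% of members, against 7.94 and 8.12% of the single-list sets. The nearest exon of that transcript was a median 6091 bp away. For 344 members (27.2%) the nearest protein-coding TSS belonged to a gene other than a host: the strongly marked region in Litaf, for example, lay nearest to the Snn start site.

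**Figure D1:**
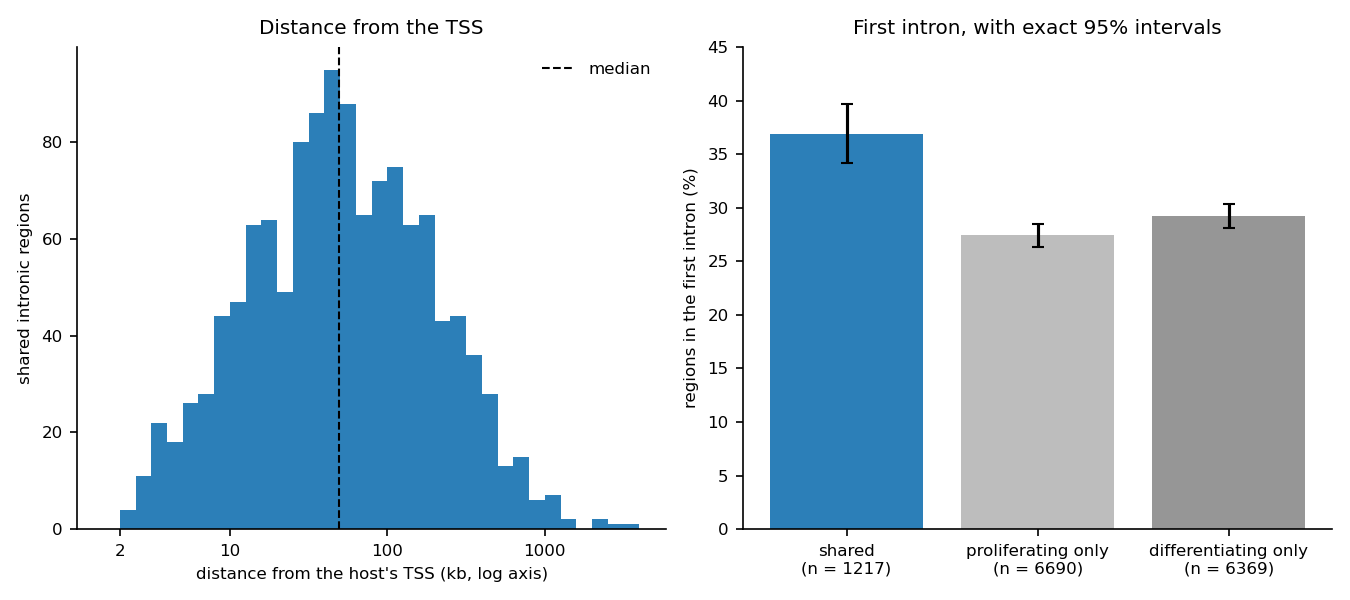
Left, counts of the 1263 shared intronic regions by distance from the TSS of their host (kb, log axis), with the median of 49605 bp dashed. Right, percent of regions in the first intron with exact 95% intervals: 36.9% of shared regions against 27.4% and 29.3% of regions with a peak in 1 list.

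Fold enrichment, the ratio to the caller's local background that the authors deposited for each peak, was modest and alike in both states. The members' median was 3.36 in proliferating cells (95% interval 3.32 to 3.39, quartiles 3.10 and 3.73) and 3.17 in differentiating cells (3.14 to 3.20, quartiles 2.90 and 3.52). Single-list intronic regions had medians of 3.27 and 3.05, and shared promoters 3.68 and 3.50. The members' peaks thus sat near the middle of each list, at median percentiles of 52.0 and 54.7, below the promoters' 76.1 and 77.4. By significance they stood higher, at percentiles of 67.6 and 68.5. In 104 members at least 1 list gave a q-value above 0.05, since the lists run to a q-value of 0.0995 and 0.0983, and 80 members had a −log10 q of at least 5 in both.

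The members highest in both lists differed in kind from the rest. By the lower of a region's 2 percentiles, the first was in 2210408I21Rik, an uncharacterised gene, with fold enrichment 16.0 in proliferating and 14.7 in differentiating cells. Cdk5rap2, a centrosome protein gene, followed with 15.04 and 14.5. The Litaf region (an endosomal adaptor) had 11.4 and 9.79, that of Sos2 (a guanine nucleotide exchange factor for RAS) 10.3 and 10.6, and that of Mamdc2 (a proteoglycan of the extracellular matrix) 9.79 and 10.7. Each of these peaks was narrow, between 527 and 683 bp, and at least 93.7% of the region lay under both peaks. In Dpp9, a dipeptidyl peptidase gene, the values were 13.2 and 10.1. The Acacb region, in the gene for an acetyl-CoA carboxylase, had 12.3 and 8.36, with repeats over 76.5% of the Dpp9 and 75.9% of the Acacb region. Pde1c, a phosphodiesterase, had 9.44 and 8.86, Cldn34d, a claudin gene on the X chromosome, 9.15 and 10.4, and Mdga2, a neuronal adhesion protein, 8.58 and 8.51. Ppp2r2b, a phosphatase subunit gene, had 9.08 and 8.81 and Kctd16, a subunit of GABA-B receptors, 9.97 and 7.88.

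Across the 50 members with the highest lower percentile, the median width was 552.5 bp and repeats covered a median 39.7% of the bases. The other 1213 members had medians of 1385 bp and 13.9%. A stretch similar to the satellite-like array on chromosome 9 (BLAST alignment of at least 50 bp) was found in 6 of the 50 (12%) and in 3 of the other 1213 (0.247%). The best matches in Cdk5rap2, Mamdc2 and Litaf had 87.1, 74.9 and 74.3% identity to it. At least 4 successive copies of the telomere letters TTAGGG stood in 9 of the 50 and in 13 of the other 1213. A short tandem repeat of any kind, meaning 60 bases that equalled themselves at 54 or more positions when shifted by 5 to 150 bases, stood in 24 of the 50 (48%, interval 33.7 to 62.6) and in 201 of the others (16.6%, 14.5 to 18.8). Sequence of this kind thus moved with the fold enrichment, and its part in the peak height was not tested. When members were ranked by lower percentile, the lowest 253 had a median width of 1501 bp and the highest 253 one of 1024 bp. The part of width in the fold enrichment of a broad peak was not tested.

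**Figure D2:**
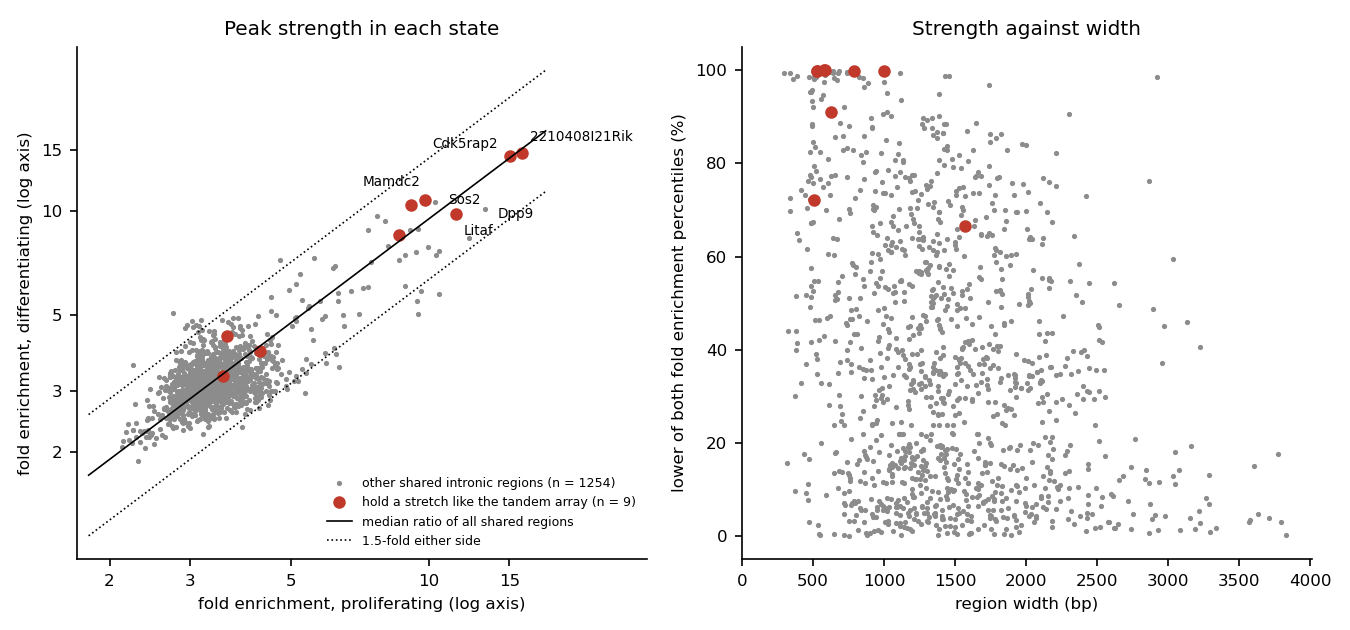
Left, fold enrichment of each shared intronic region in both states (log axes), with the median ratio of all shared regions as a line and 1.5-fold to either side dotted. Right, the lower of the region's percentiles in both lists (percent) against its width (bp): 6 of the 9 regions with a stretch like the tandem array (red) are among the 50 highest, and the widest regions lie low.

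Few members differed between states by much. The ratio of differentiating to proliferating fold enrichment was divided by its median over the 8413 shared regions, 0.950. For 946 members (74.9%) the centred ratio was under 1.2-fold in either direction, against 73.1% of all shared regions. At 1.5-fold, 10 members were higher in differentiating cells (0.792%), against 1.15% of all shared regions. Another 16 were higher in proliferating cells (1.27%), against 1.53%. Both shares were near the background and carry no result about introns. Being in both lists limits how far a ratio can go. Across members the fold enrichments of both states correlated (Spearman 0.440 over 1263 regions, each point with 1 library per state), a description without a test.

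The highest ratio was in Ggcx, which encodes the vitamin K-dependent carboxylase, where fold enrichment was 2.76 in proliferating and 5.06 in differentiating cells and the peaks shared only 0.598% of the region. A region of Ppfibp1 went from 2.95 to 4.67, one of Cenpf (a kinetochore protein) from 3.03 to 4.79, and one of 9330182L06Rik from 2.25 to 3.56. Dock2, a RAC exchange factor best known from blood cells, had 4.71 and 7.20 over a region of which 90.2% lay under both peaks. At the other end, Auts2, a neurodevelopmental regulator of transcription, had 9.47 in proliferating and 5.04 in differentiating cells. Myo7a (a myosin) had 10.5 and 5.76, Grid1 (a glutamate receptor subunit) 5.37 and 2.96, and Prkdc (the catalytic subunit of DNA-dependent protein kinase) 6.35 and 3.52. Npffr2, a neuropeptide receptor, had 9.43 and 5.46, and Mid1, a ubiquitin ligase gene on the X chromosome, 3.90 and 2.35. Repeats took 93.2% of the Prkdc and 68.7% of the Mid1 region.

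The 1263 regions lay in 964 host genes, 4.39% of the 21951 protein-coding genes. Since long genes offer more intron, the share was 15.3% among the 5007 genes of at least 50 kb. The hosts' median length was 116 kb, against 17.4 kb for all protein-coding genes. A single region was found in 754 hosts (78.2%), and 23 hosts had 4 or more. On chromosomes 1, 10 and 15, which carry the most peaks per Mb in these lists, lay 379 members (30.01%). The share was 26.3% for shared intergenic regions and 20.9% for shared promoters.

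Lhfpl3 held the most members, 11, spread over all 3 of its introns, beside 28 proliferating-only and 24 differentiating-only intronic regions. The fold enrichment of the 11 was low, from 2.20 to 3.07 in proliferating and from 2.20 to 3.23 in differentiating cells. This gene thus stood out by number and not by fold enrichment. Its 4 upstream members lay nearest to its own TSS, and the 7 downstream lay nearest to that of Kmt2e, a histone methyltransferase family gene. Tnr held 8 members, 7 of them in its first intron, with fold enrichment from 2.72 to 4.06 and from 2.61 to 3.52. In 3 of the 8 the value in proliferating cells was more than 1.2 times that in differentiating cells after centring, the furthest with 3.71 against 2.61. Dnm3, the gene of a neuronal dynamin, held 6, and its first-intron region with 4.45 against 2.73 had a centred ratio of 0.647. Gm20388, an annotated gene of 4434882 bp, also held 11, but 7 of these lay in Gse1 and 1 in Slc7a5, which overlap it. Gse1, the gene of a corepressor-associated coiled-coil protein, had fold enrichments up to 4.16 and 4.70.

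Hosts differed in how much of their intronic acetylation was shared. The hosts given here were picked for holding many shared regions, so their proportions, set against 8.50% of all intronic regions, are descriptions. Sox6 held 5 members beside 1 proliferating-only and 1 differentiating-only region, so 71.4% of its intronic regions were shared. The proportion was also 71.4% in Cuedc1, a ubiquitin-binding protein gene (5 of 7), 63.6% in Gse1 (7 of 11) and 66.7% in Acot7, an acyl-CoA thioesterase (4 of 6). Lhfpl3 had 17.5%, Stk32b, a kinase gene, 16.7% (5 of 30) and Tnr 25.8%. Dnm3 had 23.1% (6 of 26) and Gm20388 23.9% (11 of 46). Of the remaining hosts among the 12 with most regions, Fam178b held 5 of 9, Ptprj, a receptor phosphatase gene, held 4 of 10, and Gm42906 held 5 of 17. Gm42906 overlaps Stard13, a START domain protein gene with 4 of 10.

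**Figure D3:**
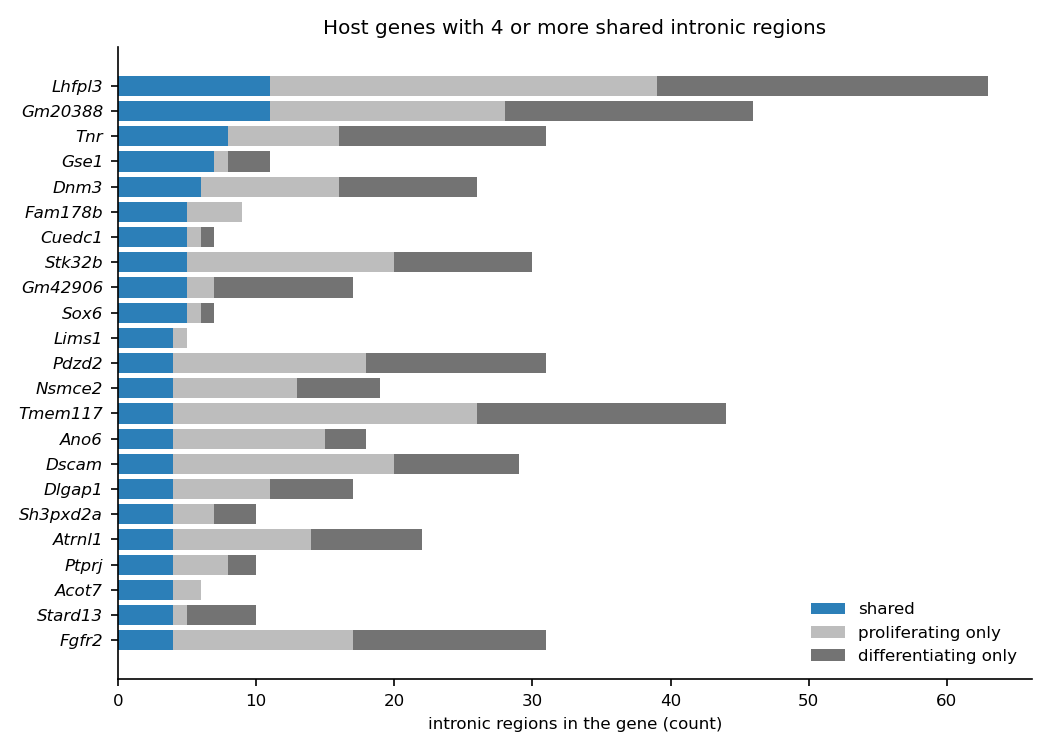
Bars count the intronic regions in each host gene with 4 or more shared ones, split into regions with a peak in both lists (blue) and in a single list (greys). Sox6, Cuedc1, Gse1 and Acot7 are mostly shared, whereas Lhfpl3 has 11 shared among many single-list regions.

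Host promoters carried acetylation more often than those of genes at large. A shared region overlapped the promoter of 325 of 964 hosts (33.7%, interval 30.7 to 36.8), against 20.4% (19.9 to 20.98) of all protein-coding genes. Among genes at least as long as the median host, 33.0% (28.8 to 37.4) of the 482 hosts and 19.8% (17.9 to 21.9) of the 1548 others did. The intervals did not overlap in these 2 libraries, but the groups were not matched in length: the median was 242 kb for these hosts and 184 kb for the others. With the TSS of every protein-coding transcript the shares were 45.4 and 24.8%. Requiring peaks to overlap over at least 0.5 of both gave 19.3% (14.8 to 24.4) and 13.7% (12.1 to 15.3), whose intervals overlapped, as did those at a −log10 q of at least 5 (7.89 and 1.55%, with only 38 long hosts).

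Genes of the oligodendrocyte lineage were often hosts. Of 44 transcription factors of the lineage, 14 (31.8%, interval 18.6 to 47.6) held a member. Of 38 myelin and mature oligodendrocyte genes, 9 (23.7%, 11.4 to 40.2) did, and of 30 precursor genes, 11 (36.7%, 19.9 to 56.1). Set against the 4.39% of all protein-coding genes, each interval lay higher. Among list genes of at least 50 kb the hosts were 11 of 18, 6 of 12 and 10 of 17, beside 15.3%. Length was not matched within that class. Of all protein-coding genes at least as long as the median host (116 kb), 23.7% were hosts. Markers of other cells gave 1 host of 15 for astrocytes (Slc1a3, a glutamate transporter, interval 0.169 to 31.9%) and 0 of 21 for neurons (exact upper bound 16.1%). For microglia and macrophages 1 of 14 was a host (Ptprc, the CD45 phosphatase, 0.181 to 33.9%). The astrocyte and microglia intervals overlapped those of all 3 lineage lists, and the neuron interval overlapped that of the myelin list. Among markers of at least 50 kb, 1 of 4 for astrocytes, 0 of 10 for neurons and 1 of 3 for microglia were hosts. The lists were chosen with earlier results of these data known, so these counts are descriptions. At promoters, a shared region lay at the promoter of 18 of the 44 factors, 9 of the 38 myelin genes, 14 of the 30 precursor genes, 4 of the 15 astrocyte markers, 1 of the 21 neuron markers and 0 of the 14 microglia markers, beside 20.4% of all protein-coding genes. The myelin list (23.7%) and the astrocyte list were thus near that share.

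Among the transcription factors, Sox6 had 5 regions, whose fold enrichment ranged from 2.90 to 3.69 in proliferating and from 2.49 to 3.58 in differentiating cells. Nfib and Nfix, nuclear factor I genes, had 3 and 2 regions, and the Nfix region 5581 bp from the TSS reached 3.84 and 4.35. In Sox5, a SOXD partner of Sox6, 1 of 2 regions had 3.30 in proliferating and 4.49 in differentiating cells. The region of Rara, the retinoic acid receptor alpha gene, nearest to its TSS had 3.09 and 3.66. Zfp488 had 3.50 and 3.03 and Ets1, an ETS factor, 3.22 and 3.20. Myt1, Tcf7l2 and Nkx2-2 held 2 regions each, and Nfia, St18, Tcf4 and Myt1l held 1 each. Only Sox6 of the 14 also had a shared region at the promoter of the gene's outermost TSS, while 6 of the 14 had one at the TSS of some transcript.

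Each of the 9 myelin-list hosts held 1 region. Tmem163, a zinc transporter gene, changed most, with 3.18 in proliferating and 4.82 in differentiating cells and a centred ratio of 1.60. Fa2h had 3.00 and 3.53, Ninj2 3.15 and 3.52, and Mbp, the myelin basic protein gene, 3.20 and 3.26. Sgk1, a serum and glucocorticoid-induced kinase, had 3.57 and 3.25, Cadm4, an adhesion protein of the myelin sheath, 3.44 and 3.37, and Itpr2, an inositol trisphosphate receptor of newly differentiating cells, 3.42 and 3.08. Tspan2, a myelin tetraspanin, had 3.06 and 3.08, and Pllp, plasmolipin, completed the list. No other region of the list had a centred ratio of 1.5 or more.

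Of the precursor genes, 8 of the 11 hosts also had a shared promoter region, against 1 of 14 factor hosts and 1 of 9 myelin hosts. The whole lists had 14 of 30, 18 of 44 and 9 of 38. By the outermost TSS, hosts thus passed their own list only among the precursor genes. At the TSS of any transcript the hosts' counts were 8, 6 and 3, and those of the lists 18, 24 and 12. Beside Lhfpl3 and Tnr, Dscam, an adhesion molecule of the immunoglobulin superfamily, held 4 regions, and Xylt1, which starts proteoglycan sugar chains, held 3. The 2 regions of Cacng4, a regulator of AMPA receptors, had 3.44 and 3.39 and, in the other, 2.66 and 2.69. Sulf2, a heparan sulfatase, had 3.07 and 3.46, Megf11 3.60 and 2.86, and Opcml 3.21 and 3.25. Cntn1, Cspg4 (the NG2 proteoglycan) and Kcnip3 were the other hosts, with 3, 1 and 1 regions.

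Growth factor signalling, which the culture conditions change between states, gave 6 hosts of 54 genes (11.1%, interval 4.19 to 22.6), an interval that holds the 4.39% of all protein-coding genes. All 6 were among the 27 list genes of at least 50 kb (22.2%, beside 15.3%). They included Sos2, whose only member was the region shown above that repeats with a unit of 51 bp. In Erbb4, an ErbB receptor, 1 region had 3.12 in proliferating and 3.37 in differentiating cells and the other 3.63 and 2.89. The insulin-like growth factor receptor gene Igf1r had 3.90 and 2.89 in 1 region and 3.57 and 3.19 in the other. Gab1, an adaptor of receptor tyrosine kinases, had 3.78 and 3.69, and 3.49 and 2.61. Sos1, the paralogue of Sos2, had 3.17 and 3.20. The body annotated for Fgfr2 spans 2960900 bp and contains other genes, and all 4 regions counted there lay nearest to the TSS of Ate1, Plekha1, Chst15 or Lhpp. Before centring, 1 region of Erbb4 was slightly higher in differentiating cells and the other lower. Both regions of Igf1r and both of Gab1 were lower in differentiating cells before centring. After division by the median ratio of all shared regions, 0.950, the Gab1 region with 3.78 and 3.69 was not lower.

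Of 57 chromatin and transcription cofactor genes, 7 were hosts (12.3%, 5.08 to 23.7), beside 4.39% of all protein-coding genes. All 7 were among the 43 list genes of at least 50 kb, where they made up 16.3%, close to the 15.3% of all genes of that length. Jarid2, a Polycomb-associated protein gene, had 5.82 and 4.87, and the stronger region of Hdac4, a histone deacetylase, 4.78 and 3.69. Chd7, a remodeller needed in oligodendrocytes, had 3.16 and 3.51. The Jarid2 region of 854 bp belonged to the 50 strongest members described above.

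**Figure D4:**
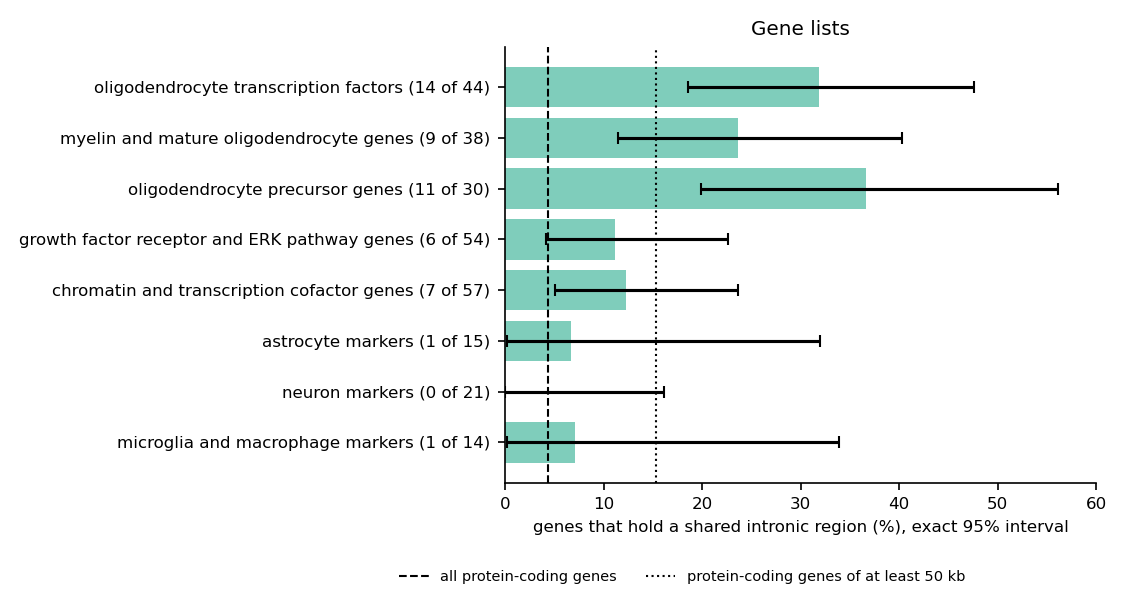
Percent of the genes of each list that held a shared intronic region, with exact 95% intervals and counts in brackets. The dashed line marks all protein-coding genes (4.39%) and the dotted line those of at least 50 kb (15.3%). The intervals of the 3 oligodendrocyte lists and of the chromatin list lie above the dashed line. Those of the chromatin and myelin lists span the dotted one. The growth factor, astrocyte, neuron and microglia intervals span both lines.

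In base composition the members were unlike shared promoters. Median GC content was 47.8%, against 44.9 and 44.7% in single-list intronic regions and 61.2% in shared promoters. The observed over expected CpG ratio was 0.204, against 0.773 in shared promoters. Repeats covered a median 14.2% of the bases, near the 15.6 and 16.5% of single-list intronic regions and the 16.6% of shared intergenic regions. In 70 members (5.54%, interval 4.35 to 6.95) repeats took more than 50% of the bases. The share was 11.6 and 11.5% in single-list intronic regions, which are narrower, and 11.5% in shared intergenic regions. It varied with width: 35 of the narrowest 253 members and 4 of the widest 253 passed 50%.

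Of 13 motifs searched on both strands in the central 300 bp, 3 were present more often than in windows 3000 bp to either side, with intervals that did not overlap. CAGCTG, the E-box that basic helix-loop-helix factors bind, stood in 25.2% of members (22.8 to 27.7), 14.3% (12.9 to 15.7) of the 2526 flanking windows and 15.3% of the windows of all merged regions. The SOX letters ACAAAG stood in 30.6% (28.1 to 33.3), 23.5% (21.9 to 25.2) and 23.8%. GGGCGG, to which SP and KLF factors bind, stood in 8.71% (7.21 to 10.4), 4.04% (3.30 to 4.88) and 12.5%, and in 60.9% of shared promoters. Members also passed single-list intronic regions in CAGCTG (14.7 and 14.6%) and in the SOX letters (24.8 and 25.6%). Shared intergenic regions had 20.9 and 27.5%. The 50 strongest members held CAGCTG in 2 and the SOX letters in 7 windows. Mean GC content was 48.4% in the members' windows and 45.4% in the flanks, and repeats covered 16.3 and 24.6% of the bases. The part of either in the motif shares was not tested.

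The remaining letters stood close to the flanks. AP-1 (TGANTCA) was found in 8.63% of members and 8.27% of flanking windows, TEAD (GGAATG) in 16.9 and 15.8%, the NFI letters TTGGCA in 17.0 and 15.2%, ETS (CAGGAAG) in 14.4 and 11.995%, and FOX (TGTTTAC) in 5.38 and 4.28%. The E-box CAGATG had 23.3 and 23.6%, the nuclear receptor letters AGGTCA 16.8 and 18.1%, RUNX (TGTGGT) 20.7 and 23.2%, TCF/LEF (ATCAAAG) 3.72 and 4.75%, and CRE (TGACGTCA) 0.317 and 0.277%. The interval of the E-box CAGCTG thus lay above that of its flanks, while that of the E-box CAGATG overlapped it. The SOX and TCF/LEF letters share CAAAG, and letters in a window are not bound sites.

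**Figure D5:**
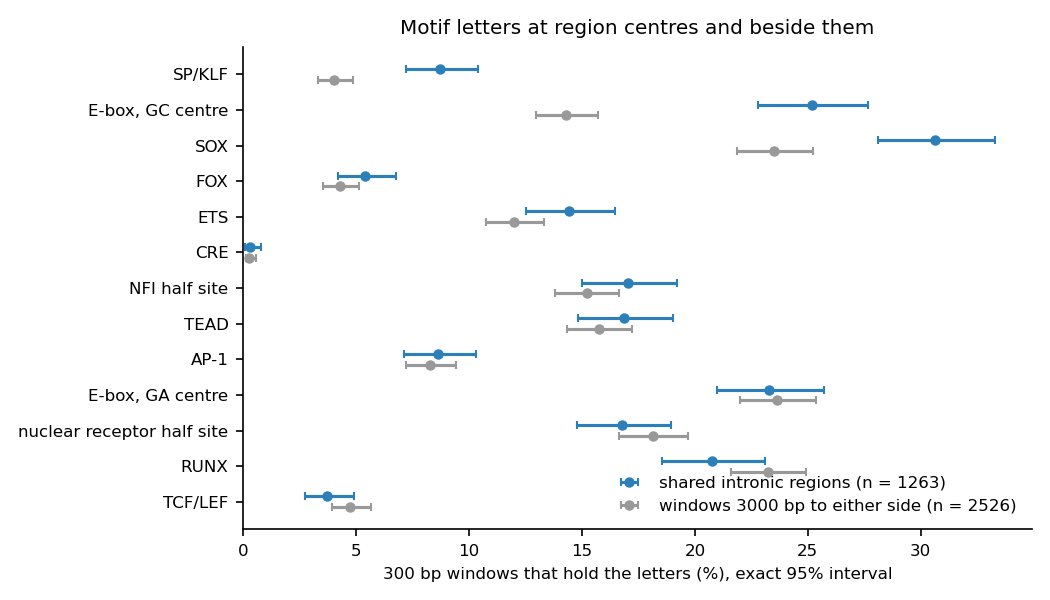
Percent of 300 bp windows that held each motif's letters on either strand, with exact 95% intervals, at the centres of the 1263 shared intronic regions (blue) and 3000 bp to either side (grey, 2526 windows). SP/KLF, the E-box CAGCTG (GC centre) and SOX lie apart from the flanks, and the other 10 overlap them.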

How the data were processed

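H3K27ac was measured by chromatin immunoprecipitation and sequencing in 1 library of proliferating and 1 of differentiating Oli-neu cells. Per the labels and the study's methods, the authors aligned unique reads to mm10 (GRCm38) with Bowtie2 2.1.0, removed duplicates with SAMtools, called broad peaks with MACS2 2.0.10 and dropped blacklisted peaks with bedtools. No input library is named in the sources used here. The deposited lists hold 28924 and 27965 peaks, and the name of each peak carries its fold enrichment (a ratio to local background) and its −log10 p-value and −log10 q-value, all made by the authors. No read counts are given, so depth is unknown.

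Here peaks were merged with bedtools 2.31.1 and placed on GENCODE M21. Each region took the values of its strongest peak in each list. Percentiles are ranks within a list. Sequence came from the soft-masked RefSeq GRCm38 genome (chromosome names and lengths checked), where lower case marked repeats. BLAST 2.17.0 (E-value at most 1e-05) measured likeness to the array. Shares have exact Clopper-Pearson 95% intervals and medians order-statistic intervals. With 1 library per state no test was run between states, and regions are not replicates. On simulated peaks set at regions already classified here, all 1200 were returned with the state and location planted. The same rule gave the planted locations, so this check could not show an error in the position rule.

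Regions named are the 12 highest in both lists, those of the 12 hosts with most regions, of up to 8 hosts per gene list, the 6 highest and lowest ratios, the 6 widest and those at the rule's limits. The other genes named complete a list, overlap a host or are nearest to a region, and some were chosen after their values were seen. The members and lists were chosen with earlier results of these data known. Some genes, a gene list and a sequence that these choices named are not reported here, and list counts are without those genes. The 6 ATAC-seq samples were not analysed here.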

Additional observations from a re-analysis of the deposited data

How the results depend on the processing

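Of 62 values recomputed under alternatives, 43 stayed within 1.5 times (counts) or within the interval (shares and medians), and 19 moved. Reversal of a direction was not scored. Requiring peaks to overlap over at least 0.5 of both left 647 regions in 550 host genes, 13.4% of shared regions in place of 15.01%, with 20.9% of hosts marked at the promoter, a median TSS distance of 43336 bp, and 5 and 7 regions higher in differentiating and proliferating cells. With a −log10 q of at least 5, 80 regions in 75 hosts remained (12.1% of shared regions), 5.33% of hosts had a marked promoter, and 1 and 4 regions were higher. With every transcript's TSS the intronic share was 14.2%, 44.2% of hosts were marked and the median distance was 29240 bp. Without chromosomes 1, 10 and 15 the share was 13.8% and 6 regions were higher in differentiating cells. At 2-fold, 0 regions passed in either direction, and without centring 29 were higher in proliferating cells. Among long genes the promoter share was higher in hosts under each setting tried, but the intervals overlapped under the 0.5 overlap and the −log10 q of 5. The share in the first intron stayed between 35.7 and 39.2%.

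No paired analysis was possible because each state has 1 library; the knockdown samples that share replicate numbers were not analysed here. The lists give no depth, 1 library per state leaves no error between states, peaks of q-value between 0.05 and the weakest listed are included, and long gene models decide the host of some regions.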

Other observations

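Members were unevenly spread over the chromosomes. Chromosome 1 held 146 members, chromosome 10 held 119 and chromosome 15 held 114, whereas chromosome 13 held 20 and the X chromosome 5. All shared regions were uneven too, with 774, 642, 586, 198 and 62 on these chromosomes. Single-list intronic regions lay on chromosomes 1, 10 and 15 still more often: 36.7% of proliferating-only and 39.8% of differentiating-only ones, beside 30.01% of members. The 221 members of at least 2000 bp held the SOX letters in 33.9% (whole set 30.6%), CAGCTG in 27.6% (25.2%), FOX in 8.60% (5.38%), AP-1 in 6.33% (8.63%) and ETS in 11.3% (14.4%), and CRE in 0 windows (0.317%). The wide members are part of the whole set, and no difference was tested. Telomere letters in successive copies were also found in weaker members, among them Phf21a and Efna5, named after their values were seen.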
